A study of Mus musculus with 2 samples.

Results

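The genes described here are 38 genes of DNA replication and cell division, 19 that act in S phase and 19 that act in mitosis. They were chosen by name from textbook roles, with earlier results of these data known. They were looked up by the gene symbol in the transcript tables. All 38 were found among 55536 annotated genes, of which 22015 are nuclear-encoded protein-coding genes. Ribosomal RNA-depleted total RNA was sequenced from nucleoplasm, the soluble content of the nucleus, of macrophages grown from the bone marrow of C57BL/6J mice. Both cultures had received Lipid A, the part of bacterial lipopolysaccharide that the receptor Tlr4 senses, at 100 ng/ml for 120 min. The 2 libraries are biological replicates 1 and 2 of this single group and share a donor entry, and the sex and age of the mice were not recorded. The RNA input was 1 µg for replicate 1 and 500 ng for replicate 2, so that input and replicate cannot be told apart. No untreated culture was analysed here, so each level below is a level in stimulated cells and not a response to Lipid A, and no test between groups was possible. Nucleoplasmic RNA holds transcripts that are still being processed as well as finished ones, so a level here is not the level in the whole cell.

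A cell that enters the cycle switches on its replication genes first. The MCM helicase is loaded on DNA by Cdc6 and Cdt1 and is activated by Cdc45 and the GINS complex. DNA polymerase, held by the sliding clamp Pcna, copies the genome, while ribonucleotide reductase, thymidylate synthase and thymidine kinase supply the building blocks. The mitotic genes follow in G2: Cdk1 with its cyclins starts mitosis, the Aurora and Polo kinases build the spindle, and the checkpoint proteins hold the chromosomes until all are attached. Bone marrow precursors divide in culture under Csf1, and macrophages leave the cycle as they mature or are activated. Cells at rest have little RNA of either class, and those in G1 have little of the mitotic class.

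The 2 classes are set apart in their promoters by short elements known from cell cycle control. E2F factors bind the promoters of replication genes, and the cell cycle homology region (CHR), which works with CCAAT boxes, keeps mitotic genes low in resting and G1 cells. RefSeq promoters of build GRCm38.p6, from 250 bases before to 50 bases after the start site, were available for 31 of the 38 genes and were searched on both strands. The CHR was searched as TTTGAA or TTTAAA, the CCAAT box as CCAAT, and the E2F element as the words TTCCCGC and also TTGGCGC and further TTCGCGC and lastly TTGCCGC. On the reverse strand an E2F word can overlap a CCAAT box. A CHR was present in 14 of 15 mitotic promoters and 7 of 16 S-phase promoters, against 30.6% of 27025 genes. A CHR and a CCAAT box stood together in 13 of 15 mitotic promoters and 5 of 16 S-phase promoters, against 12.2% of all genes. The E2F letters were found in 9 of 16 S-phase promoters and 3 of 15 mitotic promoters, against 10.9% of all genes. The letters describe the windows, and binding was not measured.

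The 250 bases before the start site are printed for 7 genes, with the matched letters in capitals. Pcna, Tk1 and Mki67 were named by their level, and the other 4 were chosen after the values were seen because they show the class pattern. The mitotic promoters of Mki67 (chr7:135716380-135716629, minus strand), Top2a (chr11:99024190-99024439, minus strand), Ccnb2 (chr9:70421555-70421804, minus strand) and Cdk1 (chr10:69352913-69353162, minus strand) each hold at least 1 CHR and 3 or more CCAAT boxes, and those of Mki67 and Cdk1 also hold E2F letters.
Mki67: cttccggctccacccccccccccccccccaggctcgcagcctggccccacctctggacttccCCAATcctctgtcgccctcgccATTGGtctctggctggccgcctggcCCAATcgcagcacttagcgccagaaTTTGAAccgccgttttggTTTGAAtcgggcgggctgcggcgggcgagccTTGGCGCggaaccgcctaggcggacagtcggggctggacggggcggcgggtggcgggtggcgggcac
Top2a: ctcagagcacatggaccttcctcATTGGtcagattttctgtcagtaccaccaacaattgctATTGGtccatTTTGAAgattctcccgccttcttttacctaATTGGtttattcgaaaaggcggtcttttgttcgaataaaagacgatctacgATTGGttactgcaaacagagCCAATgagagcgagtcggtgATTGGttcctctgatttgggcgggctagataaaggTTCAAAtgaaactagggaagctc
Ccnb2: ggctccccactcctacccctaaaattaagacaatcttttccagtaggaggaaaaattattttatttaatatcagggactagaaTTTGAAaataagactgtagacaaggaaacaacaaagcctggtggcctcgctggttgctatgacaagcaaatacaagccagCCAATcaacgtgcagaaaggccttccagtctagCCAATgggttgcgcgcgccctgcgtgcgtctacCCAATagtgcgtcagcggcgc
Cdk1: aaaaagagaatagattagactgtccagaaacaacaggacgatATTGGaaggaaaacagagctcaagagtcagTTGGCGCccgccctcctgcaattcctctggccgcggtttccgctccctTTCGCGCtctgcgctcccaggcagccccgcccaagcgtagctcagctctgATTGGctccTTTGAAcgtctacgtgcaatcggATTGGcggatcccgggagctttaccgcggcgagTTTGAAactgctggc

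The S-phase promoter of Mcm6 (chr1:128359706-128359955, minus strand) holds 2 E2F stretches and 2 CCAAT boxes and no CHR. That of Pcna (chr2:132253181-132253430, minus strand) holds 1 CCAAT box alone, and that of Tk1 (chr11:117826015-117826264, minus strand) holds 1 CHR match and neither of the other elements.
Mcm6: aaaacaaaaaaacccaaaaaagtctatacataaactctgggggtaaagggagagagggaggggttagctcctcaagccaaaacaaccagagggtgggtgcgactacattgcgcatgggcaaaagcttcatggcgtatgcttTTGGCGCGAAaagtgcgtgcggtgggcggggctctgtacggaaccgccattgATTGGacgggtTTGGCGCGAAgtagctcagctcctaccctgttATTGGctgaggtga
Pcna: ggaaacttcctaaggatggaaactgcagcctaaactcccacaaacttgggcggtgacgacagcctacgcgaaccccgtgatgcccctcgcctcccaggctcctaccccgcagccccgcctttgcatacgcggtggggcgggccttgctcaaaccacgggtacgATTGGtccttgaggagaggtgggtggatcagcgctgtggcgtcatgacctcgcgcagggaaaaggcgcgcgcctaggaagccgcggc
Tk1: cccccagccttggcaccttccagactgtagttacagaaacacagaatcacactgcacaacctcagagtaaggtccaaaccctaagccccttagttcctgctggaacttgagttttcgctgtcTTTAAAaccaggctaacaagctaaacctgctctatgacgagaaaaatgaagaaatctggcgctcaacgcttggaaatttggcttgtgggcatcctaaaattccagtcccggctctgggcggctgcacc

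RNA of both classes was present in each library, at low levels for most genes. Of the 38 genes, 16 reached 1 TPM (transcripts per 1000000, an abundance corrected for transcript length) in both libraries, which is 42.1% against 40.4% of all protein-coding genes, a share near the background. In the S-phase class 11 of 19 genes reached this level, in the mitotic class 5 of 19. A further 4 genes, Mcm7, Gins2, Cdk1 and Birc5, reached it in replicate 1 alone, and 18 lay below it in both. No gene was without counts, and the lowest value in a library was 3 counts, for Cdc45 in replicate 1.

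How the genes stand against the background depended on the scale, because many lie close to 1 TPM. Protein-coding genes held 29.8% of all TPM in replicate 1 and 20.8% in replicate 2. With TPM rescaled over protein-coding genes alone, 29 of the 38 genes reached 1 TPM in both libraries, which is 76.3% against 49.3% of all protein-coding genes. At 10 or more counts in both libraries the number was 28, or 73.7% against 48.3%. In the second deposited quantification, made from the reads themselves, it was again 16, against 47.3%, with 9 S-phase and 7 mitotic genes. By count, then, RNA was measured for more of these genes than for protein-coding genes as a whole, while on the deposited TPM scale and in the read-based table the share was near or below the background.

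The S-phase class lay above the mitotic class in both libraries. Its median was 1.49 TPM in replicate 1 and 1.09 TPM in replicate 2 (1.29 ± 0.283, SD, n = 2), and that of the mitotic class was 0.59 and 0.53 TPM (0.56 ± 0.0424, SD, n = 2). The ratio of the medians was 2.525 in replicate 1 and 2.057 in replicate 2. In each library 14 of 19 S-phase genes lay above the mitotic median, and 5 of 19 mitotic genes lay above the S-phase median. The read-based table gave a smaller ratio of 1.317 as the mean of the libraries, and among the 16 genes that passed 1 TPM in both it was 1.016. That last ratio was taken after a filter on the same level and over only 5 mitotic genes, so it says little on the classes as a whole. Over all protein-coding genes the median was 0.5 and 0.24 TPM.

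**Figure D1:**
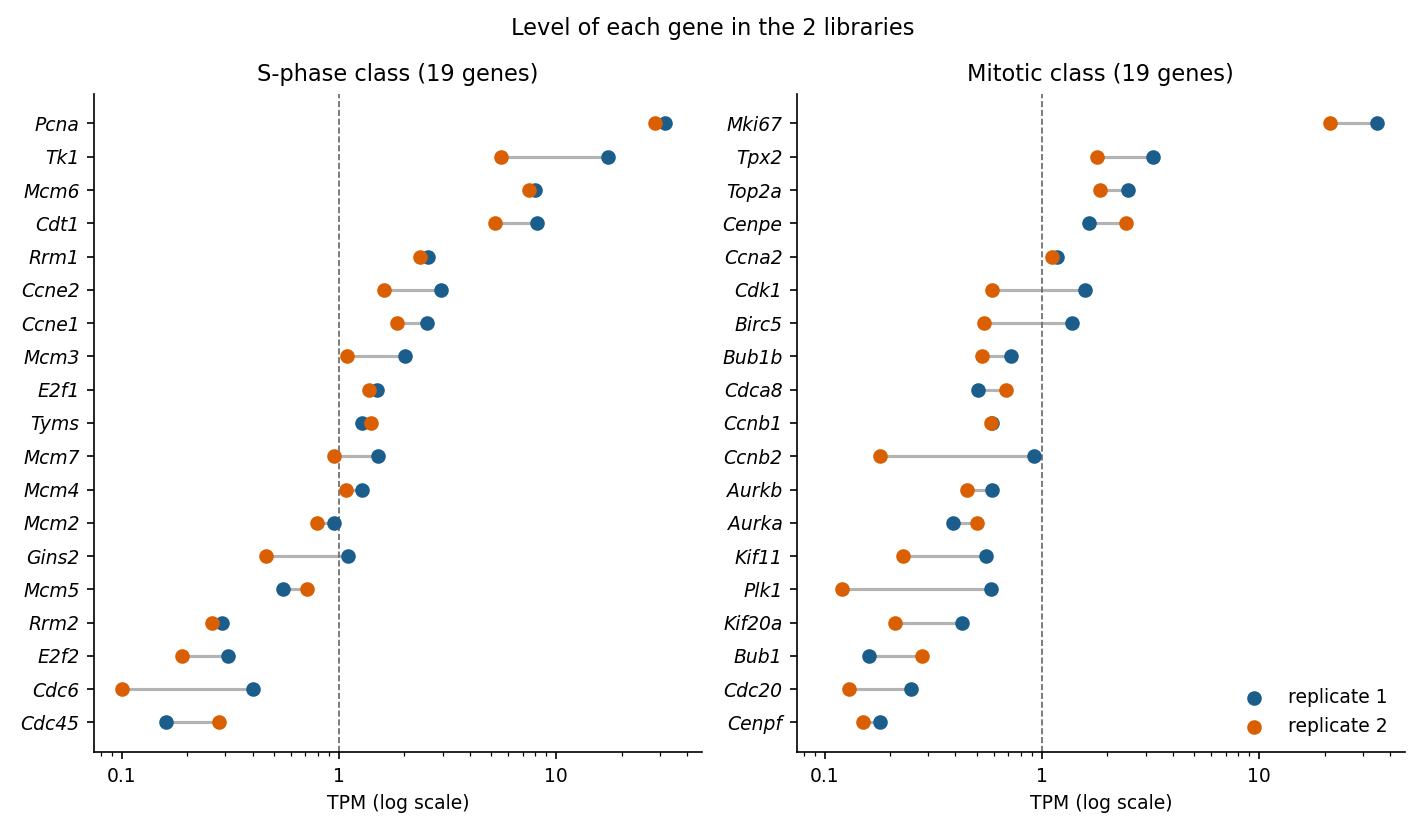
Level in TPM (log scale) of each S-phase gene (left) and mitotic gene (right) in replicate 1 (blue) and replicate 2 (orange), ordered by the mean; the dashed line marks 1 TPM. Pcna and Mki67 stand above all others of their class, and 11 S-phase and 5 mitotic genes lie at or right of the line in both libraries.

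Pcna, the sliding clamp that holds DNA polymerase on its template, was the highest S-phase gene (chr2:132249162-132253314, minus strand, mm10). It had 450 counts in replicate 1 and 707 in replicate 2, or 31.6 and 28.5 TPM (30.0 ± 2.19, SD, n = 2), which placed it at percentile 90.8 and 93.3 of protein-coding genes. The 2 libraries were close on the TPM scale, but relative to the median gene its count was 1.53 times as high in replicate 2. It took 24.1% of the S-phase counts in replicate 1 (95% exact binomial interval 22.2 to 26.1%) and 34.0% in replicate 2 (32.0 to 36.1%). Intervals here cover counting error only, since the reads carry no molecular identifiers and copies of 1 molecule cannot be recognised. Of its processed pseudogenes, whose sequence is near-identical, Pcna-ps1 had 0 counts in both libraries and Pcna-ps2 had 0 and 7.02. Pcna also acts in DNA repair outside S phase.

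The other fork genes were far lower than the clamp. Cdc45, which joins the helicase when an origin fires, had the lowest mean TPM of the S-phase class, with 3 and 8 counts, or 0.16 and 0.28 TPM, although Cdc6 was lower in replicate 2. The read-based table gave Cdc45 45.4 and 42.9 counts, or 1.31 and 0.694 TPM, above Cdc6, Rrm2 and E2f2, so its place depends on the quantification. Gins2, a subunit of the GINS complex, had 56 and 34 counts, or 1.10 and 0.46 TPM. Gins2 lies across from the annotated gene Gm20388, which had 0 counts in replicate 1 and 456 in replicate 2, and its values are uncertain, since no source used here says whether counting used strand. The same doubt holds for all 14 members with an annotated gene on the opposite strand.

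The 6 MCM subunits form a ring with 1 copy of each, yet their RNA was uneven. Mcm6 (chr1:128331590-128359664, minus strand) had 295 and 340 counts, or 7.95 and 7.48 TPM (7.72 ± 0.332, SD, n = 2). It stood 3.94 times above the next subunit in replicate 1 and 6.86 times above it in replicate 2, and 6.32 and 6.35 times in the read-based table. Mcm3 had 2.02 and 1.09 TPM, Mcm4 1.28 and 1.08 TPM, Mcm7 1.51 and 0.95 TPM and Mcm2 0.95 and 0.79 TPM. The values of Mcm3, Mcm4 and Mcm7 overlapped, and Mcm2 lay below these 3 in each library. Mcm5 was lowest in each library, at 0.55 and 0.71 TPM from 21 and 32 counts, but the read-based table put it second to Mcm6, at 1.15 and 0.928 TPM. The introns of Mcm7 hold the microRNA genes Mir25, Mir93 and Mir106b, none of which had a count.

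Of the licensing factors, Cdt1, which brings the helicase to origins, had 223 and 209 counts, or 8.11 and 5.23 TPM. Cdt1 lies within Gm20388 on the same strand, so its split from that gene is uncertain. Its partner Cdc6 had 18 and 4 counts, or 0.40 and 0.10 TPM, 1 of the 3 lowest genes of the class by mean TPM. The partners thus lay far apart in both libraries.

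The genes of nucleotide supply spanned most of the range of the class. Tk1, thymidine kinase 1, which salvages thymidine in S phase (chr11:117815526-117826092, minus strand), had 266 and 128 counts, or 17.3 and 5.56 TPM (11.5 ± 8.33, SD, n = 2), the widest gap of the class on this scale. On the opposite strand of Tk1 lie Afmid, with 50.4 and 21.8 counts, and Gm20708, with 16.6 and 0.24, which also had fewer counts in replicate 2. Rrm1, the large subunit of ribonucleotide reductase, had 78 and 118 counts, or 2.57 and 2.37 TPM. Rrm2, the small subunit that is made in S phase and limits the enzyme, had 8 and 11 counts, or 0.29 and 0.26 TPM. The 2 subunits lay apart by more than the spread between libraries. Tyms, thymidylate synthase, had 43 and 64 counts, or 1.28 and 1.40 TPM.

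Among the genes that control the entry into S phase, the cyclins Ccne1 and Ccne2, partners of Cdk2, had 2.55 and 1.85 TPM and 2.96 and 1.61 TPM, and they overlapped. E2f1, an activator of replication genes, had 1.49 and 1.37 TPM. E2f2, a second activator, had 20 and 12 counts, or 0.31 and 0.19 TPM. E2f1 lay above E2f2 in each library.

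Mki67 stood apart in the mitotic class. It encodes Ki-67, which coats mitotic chromosomes and serves as a marker of cycling cells (chr7:135689784-135716361, minus strand). It had 4831 counts in replicate 1 and 4193 in replicate 2, or 34.9 and 21.1 TPM (28.0 ± 9.74, SD, n = 2), at percentile 91.6 and 91.0 of protein-coding genes. That was 10.7 times the next mitotic gene, Tpx2, in replicate 1 and 8.64 times the next, Cenpe, in replicate 2. In the read-based table the gap was smaller, at 2.65 times over Cdk1 and 4.09 times over Tpx2. Nearly all of its counts fell on the long transcript Mki67-201, of 10061 bases and 14 exons, with 4831 and 4185 counts.

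Mki67 alone made up 87.7% of all counts of the mitotic class in replicate 1 (86.9 to 88.6%) and 84.1% in replicate 2 (83.0 to 85.1%). Of 1000000 protein-coding counts the mitotic class held 527.9 in replicate 1 and 454.2 in replicate 2, and without Mki67 64.7 and 72.4. The S-phase class held 179.2 and 189.1. A sum of counts over mitotic genes in these libraries is therefore mostly a reading of Mki67, and without it the sum lies below that of the S-phase class in both. Counts are not corrected for length, and the Mki67 transcript is long. By TPM, Mki67 held 34.9 of 52.2 TPM of the mitotic class in replicate 1 and 21.1 of 33.5 in replicate 2. The S-phase class summed to 84.4 and 61.2 TPM. The share of Mki67 was computed after the values were seen.

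Top2a, the topoisomerase that untangles sister chromatids, had 108 and 150 counts, or 2.49 and 1.85 TPM. Tpx2, which activates Aurka on the spindle (chr2:152847964-152895321, plus strand), had 127 and 116 counts, or 3.25 and 1.80 TPM. Cenpe, a kinetochore motor, had 178 and 278 counts, or 1.64 and 2.44 TPM. These 3 overlapped in level and had no fixed order. Cenpf, another kinetochore protein with a long transcript, had the lowest mean TPM of the class, at 0.18 and 0.15 TPM from 28 and 34 counts. Other genes were lower in each single library, and in the read-based table Cenpf had 0.504 and 0.352 TPM, above Bub1.

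The kinases and cyclins that drive mitosis were low. Ccna2, a cyclin of both S phase and mitosis, had 1.17 and 1.11 TPM and alone of its group passed 1 TPM in both libraries. In the read-based table Ccna2, at 1.12 and 0.816 TPM, did not pass, and Cdk1, at 9.16 and 3.47 TPM, did. Cdk1, the central mitotic kinase, had 23 and 16 counts, or 1.58 and 0.59 TPM. Its cyclins Ccnb1 and Ccnb2 had 14 and 23 counts and 17 and 5 counts. Plk1, the Polo kinase, had 13 and 5 counts, and Aurka, the spindle pole Aurora kinase, had 9 and 14. The group as a whole, with Ccna2, held 105 counts in replicate 1 and 100 in replicate 2.

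The chromosomal passenger genes, whose products correct faulty attachments, were as low in the gene table. Aurkb, the kinase, had 4 and 9 counts, Birc5, or survivin, had 30 and 16, and Cdca8, or borealin, had 12 and 22. In the read-based table Birc5, at 6.10 and 2.86 TPM, and Cdca8, at 1.01 and 1.37 TPM, passed 1 TPM in both libraries. Aurkb, at 1.03 and 0.897 TPM, did not. The checkpoint genes summed to 40 and 36 counts. Cdc20, which activates the anaphase-promoting complex, had 5 and 4 counts, or 0.25 and 0.13 TPM. Bub1, a checkpoint kinase, had 7 and 14 counts, or 0.16 and 0.28 TPM. Cdc20 and Bub1 were, with Cenpf, the 3 lowest of the class by mean TPM. Bub1b had 28 and 18 counts, the spindle motor Kif11 34 and 21, and Kif20a, a motor of cytokinesis, 9.48 and 12.8. At such counts the counting interval of the ratio between the libraries is wide, for Cdc20 from 0.159 to 3.72.

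The libraries were next compared gene by gene, as ratios of counts in replicate 2 over replicate 1. On the TPM scale the median log2 ratio of (TPM + 1) over 12655 genes whose mean was 1 TPM or higher was -0.58, and 12298 protein-coding genes had the higher TPM in replicate 1 and 2797 in replicate 2. Of the 38 genes 31 had the higher TPM in replicate 1. On the count scale the median protein-coding gene with 10 or more counts in both had a ratio of 1.026 (n = 10634 genes), and ratios are given relative to it. Of the 28 members with 10 or more counts in both, 1 was lower in replicate 2 by 2-fold or more, against 3.5% of all such genes, and 0 were higher by 2-fold or more, against 6.0%. The median relative log2 ratio was 0.23 over 16 S-phase genes and 0.04 over 12 mitotic genes. With 1 library on each side these are descriptions, and no p-value applies.

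Tk1 differed most among the 28 members with 10 or more counts in both. Below that limit, Cdc6 had a ratio of 0.222 (0.0547 to 0.675) and Ccnb2 of 0.294 (0.0848 to 0.831). The ratio of Tk1, 0.481 (exact binomial interval 0.387 to 0.596), corresponds to -1.09 on the relative log2 scale. At the other end of the S-phase class, Pcna had a ratio of 1.571 (1.394 to 1.772), or 0.62 relative to the median gene. Rrm1, the reductase subunit, had 1.513 (1.127 to 2.04), so that Tk1 and Rrm1 moved in opposite directions in gene-table counts. This direction of Rrm1 was less clear in the read-based table, which gave 523 and 600.7 counts, or 9.69 and 5.12 TPM. Its gene-table TPM, 2.57 and 2.37, was lower in replicate 2, as it was for most genes. The median log2 ratio of (TPM + 1) was -0.58, so this small fall of Rrm1 does not reverse its direction relative to other genes. In the mitotic class, Cdca8 had the highest relative log2 ratio at 0.84, and Birc5 the lowest at -0.94, and the interval of Cdca8 (0.869 to 4.06) reached the median gene while that of Birc5 (0.272 to 1.01) ended just below it. Cenpe had 1.562 (1.289 to 1.896), and Mki67 0.868 (0.833 to 0.905).

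The counting interval lay above the median gene for 4 of the 28 genes (Pcna, Rrm1, Top2a and Cenpe) and below it for 5 (Tk1, Gins2, Ccne2, Mki67 and Birc5), against 26.6% and 27.7% of all genes with 10 or more counts in both. Both counts lay below the background shares, which also depend on how many counts a gene has.

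**Figure D2:**
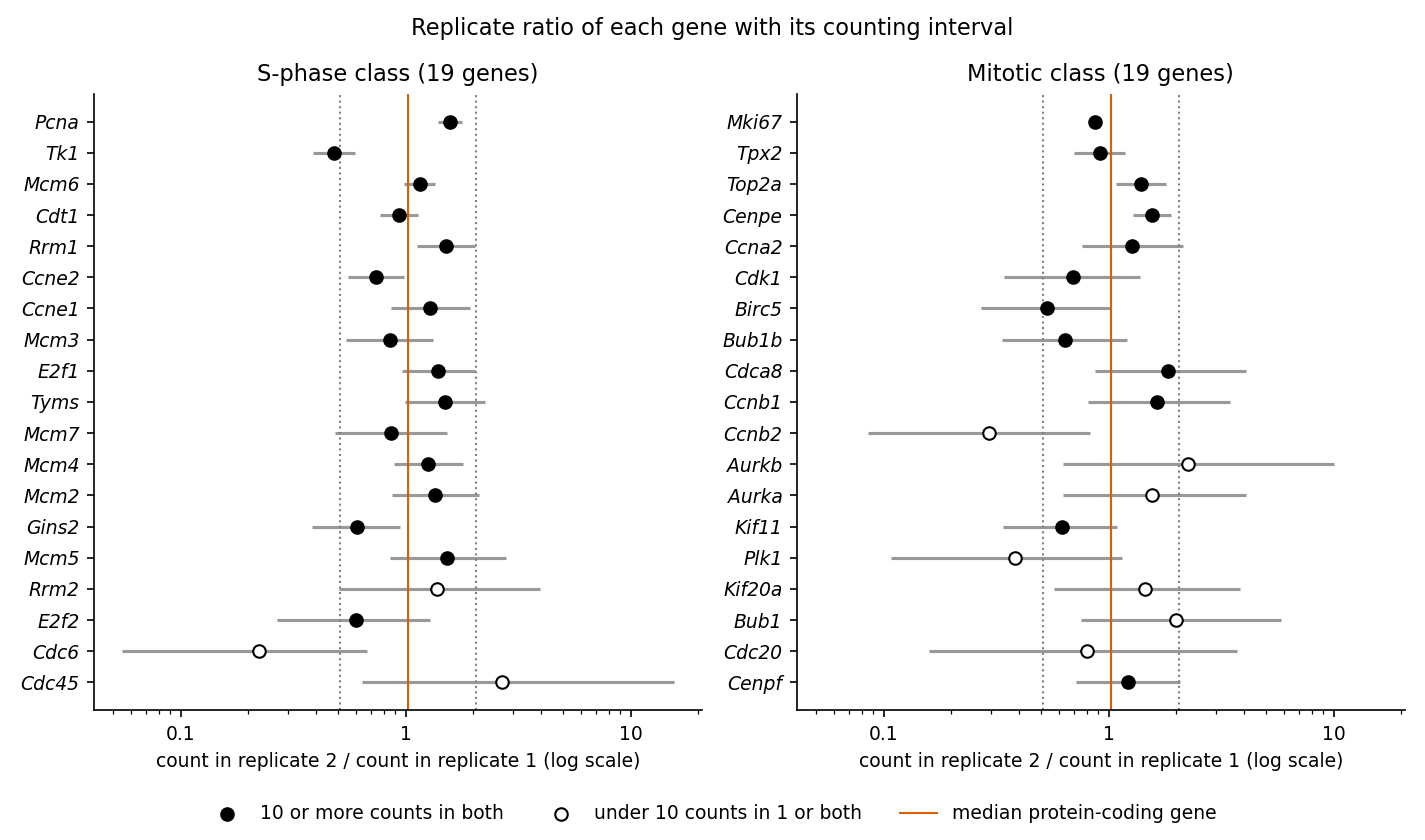
Count in replicate 2 over count in replicate 1 (log scale) for each gene, with its 95% exact binomial interval; filled points have 10 or more counts in both libraries. The orange line is the median protein-coding gene at 1.026 and the dotted lines lie 2-fold to either side; Tk1, at 0.481, is the only filled point beyond them.

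Markers of other cells also differed between the libraries. The 11 stromal markers summed to 5852 counts in replicate 1 and 66 in replicate 2, and Col1a1, the main collagen of fibroblasts, had 1845 and 8. In replicate 2 stromal genes lay between 0 and 39 counts, with 3 of 11 at 0. The 9 macrophage markers were all at 1 TPM or more in both and summed to 27570 and 71962 counts. The 2 highest by mean TPM were Lyz2, with 6233 and 30717 counts, and Adgre1, with 6800 and 8602. Relative to the median gene 5 of the 9 were higher in replicate 2 by 2-fold or more. Mertk, with 4681 and 4909 counts, was near the median gene, and only Spi1, with 740 and 673, was below it. The 6 stem and progenitor markers summed to 174 and 117, with Kit, the receptor of early progenitors, at 106 and 64 and with 3 of 6 at 0 in replicate 2. The 6 granulocyte progenitor markers, the 8 erythroid markers and the 7 lymphoid markers summed to 7 and 4, 28 and 27, and 35 and 12. The 5 endothelial markers summed to 549 and 546, of which Kdr gave 499 and 508. Over the same libraries the S-phase class moved from 1869 to 2077 counts and the mitotic class from 5506 to 4988, of which Mki67 made up most in the mitotic class and Pcna a part in the S-phase class. Single genes fell in count from replicate 1 to replicate 2: Tk1 from 266 to 128, and, named after their values were seen, Mcm10 of the replication list from 354 to 47, and Ckap2l and Dlgap5 of the mitosis list from 365 to 83 and from 112 to 25. Others of these lists rose, such as Pole3 from 31 to 74 and Smc2 from 64 to 127. Relative to the median gene, 20 of 35 other replication genes were lower and 15 higher in replicate 2, with a median log2 ratio of -0.04. Of 34 other mitosis genes 22 were lower and 12 higher, with a median of -0.12. Which cells the RNA of Tk1, Mki67 or any other member came from was not tested, and in bulk RNA fewer cycling cells and less RNA per cell cannot be told apart.

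Since the RNA is nuclear, part of a gene's level can come from transcripts that keep an intron. For each gene the share of its TPM on transcripts annotated as retained intron was taken, for the 11 members at 1 TPM or more in both libraries that have such a transcript. Their median share was 34.1% in replicate 1 and 38.8% in replicate 2, against 38.4% and 31.9% over 5742 protein-coding genes chosen the same way, and 4 and 6 of the 11 lay above that background. The members as a group were not set apart.

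Tk1 had the highest share, 83.3% in replicate 1 and 74.5% in replicate 2 (78.9 ± 6.27%, SD, n = 2). Its protein-coding transcript Tk1-201 had 2.89 and 1.42 TPM of the 17.3 and 5.56 TPM of the gene, and the retained-intron transcript Tk1-202 had 4.12 and 1.13 TPM. Most of the gene's level, and most of its gap between the libraries, was therefore not on the coding transcript, which had 49.7 and 36.8 counts. Tyms came next at 50.4 and 71.4%, and Mcm3 had 48.5 and 45.0%. These are shares of TPM, in which short transcripts weigh more than in counts. By count the share was 81.3 and 71.3% for Tk1 and 52.7 and 53.2% for Tyms. For Mcm3 it was only 12.4 and 10.2% by count, so the high TPM share of Mcm3 rests on few counts. At the low end Ccne1 and Ccna2 had 0 in both libraries, and Tpx2 had 20.9% and 0, from 1.38 and 0 counts. Pcna had 34.1% and 20.6%.

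**Figure D3:**
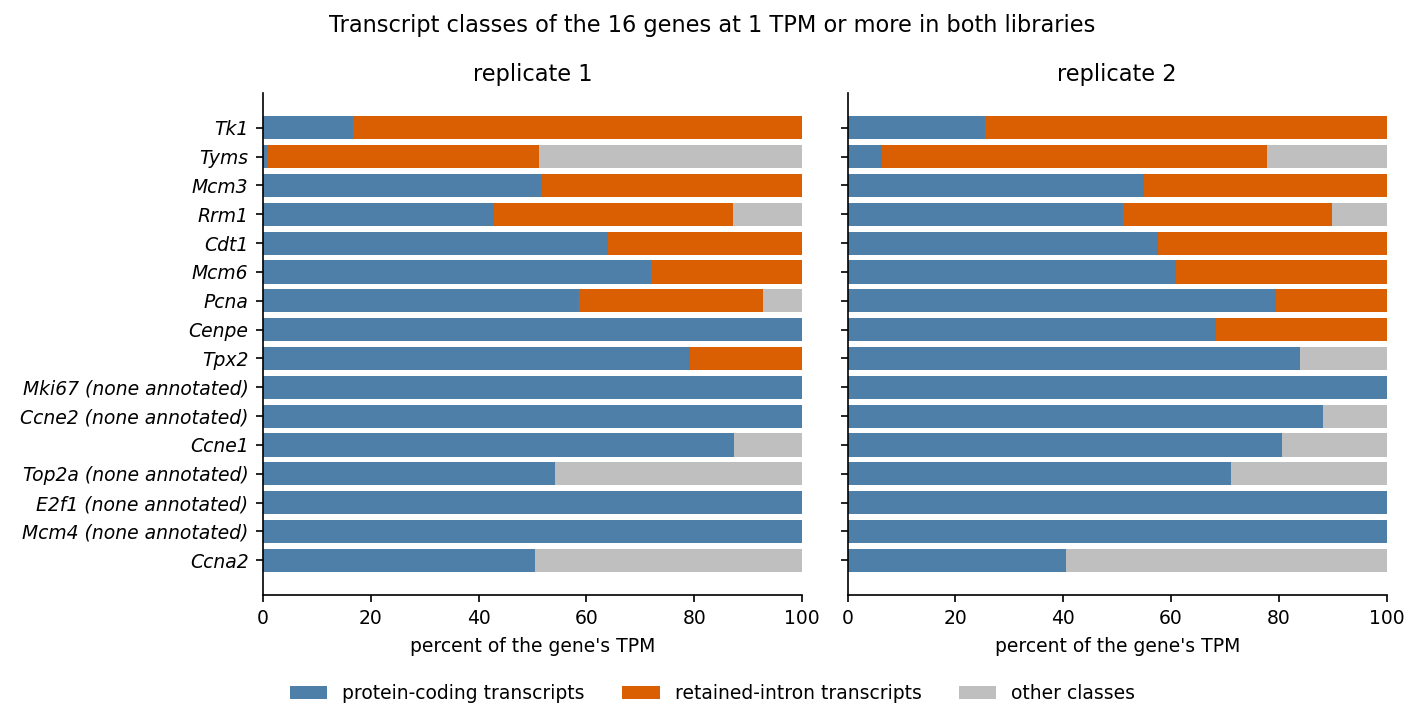
Percent of each gene's TPM on protein-coding (blue), retained-intron (orange) and other (grey) transcripts, for the 16 genes that passed 1 TPM in each library, replicate 1 left and replicate 2 right. Tk1 shows the largest orange bar in both libraries, 83.3% and 74.5%; genes with no annotated retained-intron transcript are marked.

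The read-based table changed several of these values. It put the share of Tk1 at 87.0% as the mean of both libraries, but that of Tyms at 16.6% in place of 60.9%, that of Rrm1 at 87.2% in place of 41.6%, and that of Cdt1 at 76.5% in place of 39.2%. Only for Mcm6, Pcna and Cenpe did the share move by less than the spread between libraries. The high share of Tk1 was found in both tables, and that of Tyms in the alignment-based one alone.

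Counts differed between the tables too. The read-based count was 1.45 times the gene-table count for the median protein-coding gene in replicate 1 and 1.68 times in replicate 2, and 1.95 and 2.21 times for the median of the 28 members with 10 or more counts in both. It was over 3 times higher for 7 of these 28 in replicate 1, against 10.9% of all genes, and for 8 in replicate 2, against 12.0%. The 7 were alike in both libraries: Mcm5, Rrm1, Tyms and E2f1 in the S-phase class and Cdk1, Cdca8 and Birc5 in the mitotic class. Birc5 was the extreme, at 17.1 and 25.0 times. Its transcript Birc5-202 had 20.7 and 9.87 counts in the alignment-based table and 504.7 and 395.1 in the read-based table. Levels of these 7 genes therefore depend on the quantification, while Mki67, at 1.10 and 1.34 times, and Pcna, at 1.34 and 1.48 times, stayed below the median gene in both libraries.

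**Figure D4:**
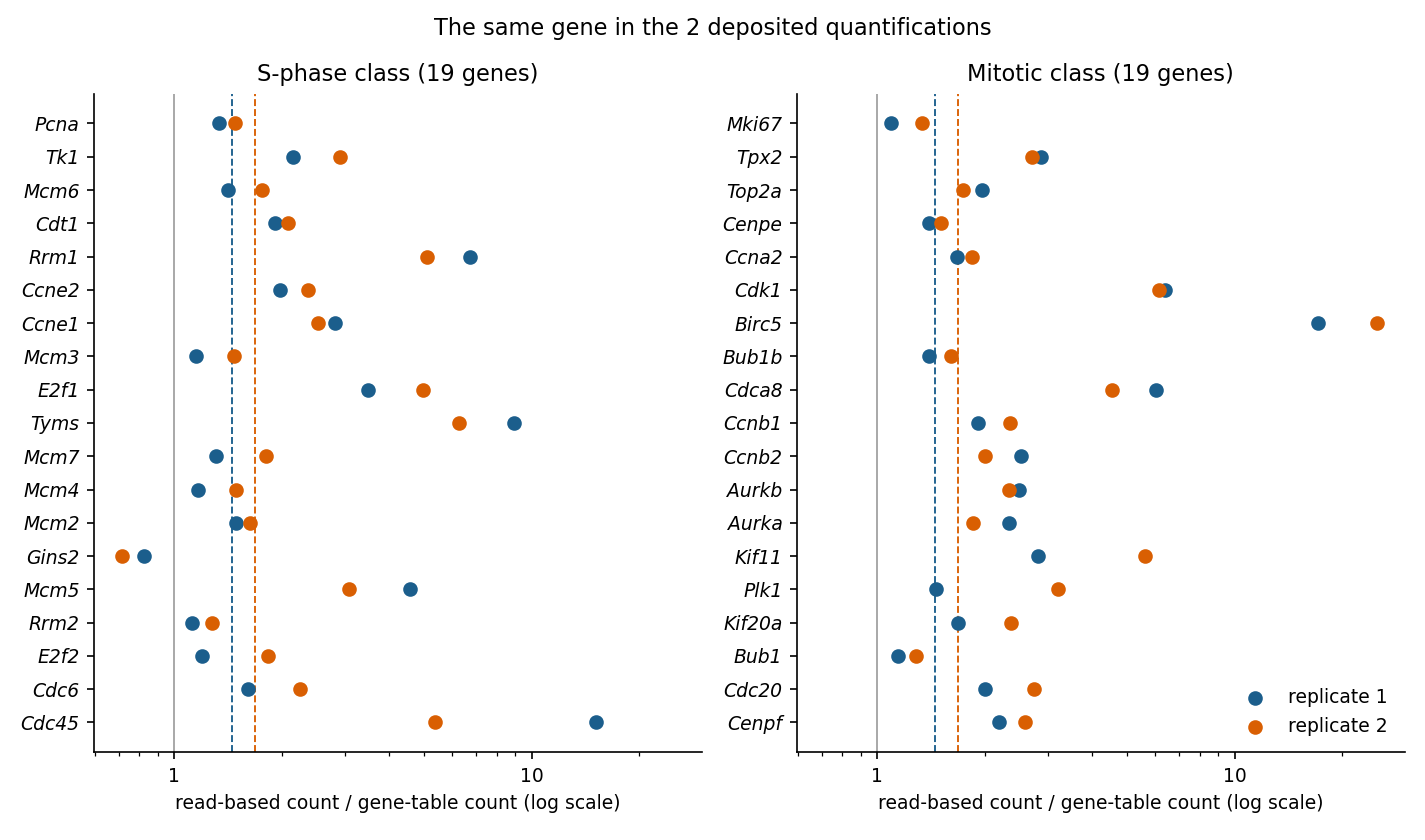
Read-based count over gene-table count (log scale) of each gene in replicate 1 (blue) and replicate 2 (orange); the dashed lines mark the median protein-coding gene, 1.45 and 1.68. Birc5 lies farthest right, at 17.1 and 25.0, and Gins2 is the only gene under 1 in both libraries.

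In the gene table, further genes of the same processes showed the same order of classes. Of 45 other replication genes 25 reached 1 TPM in both libraries, with medians of 1.74 and 1.32 TPM, against 14 of 52 other mitosis genes, with medians of 0.665 and 0.39 TPM. Pold3, a subunit of DNA polymerase delta, had 53.3 and 30.8 TPM, and Orc4, of the origin recognition complex, had 44.6 and 42.0 TPM. Pttg1, or securin, had 48.0 and 34.6 TPM, and Smc4, a condensin subunit, had 24.3 and 12.5 TPM. Pold3, Orc4 and Pttg1 lay above every member in both libraries, and Smc4 above every member but Pcna and Mki67. Single genes of these lists also depend on the quantification. Kif23 of the mitosis list had 1.99 and 2.69 TPM in the gene table but 177.5 and 75.2 TPM in the read-based table, above every member there. The medians of these lists were not taken in the read-based table.

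The lists that supply, time or restrain the cycle had higher medians than both classes in each library. Among 10 genes of nucleotide supply that are not members 6 reached 1 TPM in both, and Samhd1, which breaks down deoxynucleotides in macrophages, had 872.6 and 640.8 TPM and Dck, a deoxynucleoside kinase, 17.7 and 8.29 TPM. Of 21 regulators of cell cycle transcription and timing 16 reached it, with medians of 6.18 and 4.37 TPM; Rbl1, the pocket protein p107, had 28.8 and 22.5 TPM, and Pkmyt1, an inhibitory kinase of Cdk1, had 16.9 and 11.6 TPM. Of 9 G1 cyclins, kinases and their regulators 8 reached it, with medians of 7.05 and 3.98 TPM. Cdk6, a G1 kinase, had 240.9 and 62.2 TPM from 13774 and 8015 counts, and Ccnd2, a D cyclin, had 36.7 and 25.3 TPM. Of 10 inhibitors of the cycle 6 reached it, with medians of 3.37 and 2.345 TPM. Cdkn1a, or p21, which blocks cyclin-dependent kinases, had 165.1 and 136.2 TPM, above every member; Samhd1 was higher in both libraries and Cdk6 in replicate 1. Btg1, an antiproliferative protein, had 29.0 and 15.2 TPM. These levels are those of the gene table. E2f7, a regulator with 0.12 and 0.41 TPM there, had 28.5 and 9.95 TPM in the read-based table.

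**Figure D5:**
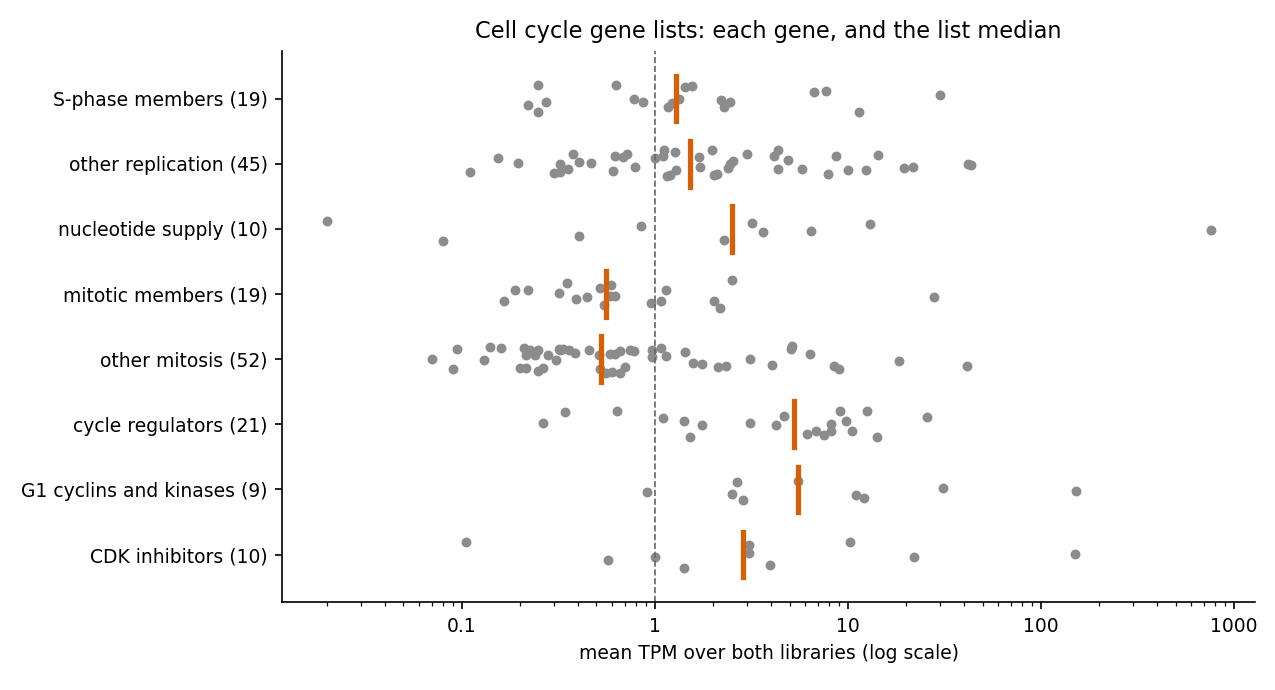
Mean TPM over both libraries (log scale) of each gene in 8 cell cycle lists, with the number of genes in brackets and the list median as an orange bar; the dashed line marks 1 TPM and vertical scatter within a row carries no meaning. The values are those of the gene table, in which the medians of both mitotic lists lie left of the line and the other 6 medians right of it.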

How the data were processed

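Total RNA of nucleoplasm was measured in 2 libraries of 1 group, with 14374739 and 16372797 estimated counts in the gene tables. Gene and transcript tables derived from an alignment, and a transcript table derived from the reads, were deposited per library, on mm10 with annotation M21, per the labels' accompanying notes. The expected counts are estimates of reads per feature and include fractions, per the file headers. The deposited TPM values are divided by effective length and scaled to 1000000 over all entries. The deposited FPKM values served only as an alternative. For the aligner, the quantifiers and the use of strand, the name or setting is not given in the sources used here. Entries that are not annotated genes were left out.

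Read-based values were summed per gene. Shares and ratios of rounded counts carry exact binomial intervals at 95%. TMM factors came from edgeR 4.0.16 and size factors from DESeq2 1.42.0 in R 4.3.3, and the other steps used Python 3.11.15, pandas 2.3.3, scipy 1.17.1 and matplotlib 3.10.9; the ratio step was tested on simulated data. No test between groups and no paired comparison was possible with 1 group. The members and lists were chosen with earlier results of these data known. Full values are given for the 3 highest and 3 lowest genes of each class by mean TPM. They are also given for the largest relative ratio in each direction among genes with 10 or more counts in both libraries. The 3 highest and lowest retained-intron shares and the 2 highest genes of each other cell cycle list are given as well. Other members are given with their level or counts, and cell type marker lists as sums with some genes named. Alternatives were the read-based table, other scales, thresholds and pseudocounts, and each library alone.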

Additional observations from a re-analysis of the deposited data

How the results depend on the processing

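The number of genes that passed 1 TPM in each library was 16 in the gene and read-based tables and 17 by FPKM. It was 29 with TPM rescaled over protein-coding genes, 28 at 10 or more counts, 24 at 0.5 TPM and 5 at 5 TPM, and 16 to 20 with 1 library alone. The S-phase median of 1.29 TPM was 5.121 after rescaling and 2.21 over genes at 1 TPM or more in both, and 1.09 to 1.49 with 1 library alone. The mitotic median of 0.56 TPM was 0.8508 in the read-based table, 2.264 after rescaling, 0.635 by FPKM and 2.17 over genes at 1 TPM or more in both, and 0.53 to 0.59 with 1 library alone. The ratio of the medians, 2.291 as the mean of the libraries, was 1.317 in the read-based table, 1.016 over genes at 1 TPM or more in both, 2.421 without Ccna2, Mki67 and Top2a, and 2.057 to 2.525 with 1 library alone. The members' share of protein-coding counts, 675.2 per 1000000, was 721.1 in the read-based table, 643.3 to 707.1 with 1 library alone, and 252.7 without Mki67, an alternative added after the data were seen. The relative log2 ratio of TPM + 1 was 0.35 for the S-phase class and stayed between 0.16 and 0.36 under the 7 alternatives. That of the mitotic class was 0.14 over 6 genes and turned to -0.06 in the read-based table; the cause was not tested. Of the 38 mean TPM values 26 moved by more than the spread between libraries in the read-based table, and of 11 retained-intron shares 8 did. The spread rests on 2 libraries, and 10 of the 38 genes had under 10 counts in at least 1 of them.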

Other observations

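The D cyclins and their kinases Cdk4 and Cdk6 were also read gene by gene. Ccnd2 led the D cyclins with 2412 and 2470 counts, while Ccnd1 had 117 and 180 counts and Ccnd3 109 and 67.9 counts in replicates 1 and 2. Cdk6 had 13774 and 8015 counts and Cdk4 190 and 257, and relative to the median gene Cdk6 had a log2 ratio of -0.82 and Cdk4 of 0.40 in replicate 2 over replicate 1. These genes were chosen after their values were seen.

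The transcript that carries the Tyms protein was nearly absent from the alignment-based table and abundant in the read-based one. Tyms-201 had 0.48 and 5.67 counts in the former and 289.8 and 287.1 in the latter. The retained-intron transcript of Rrm1 with 1 exon and 5475 bases had 10 and 12 counts against 315.5 and 369.4. Birc5, Tyms and Cdk1 have no other annotated gene overlapping them, and the cause of these gaps was not tested.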
